A study of Mus musculus with 8 samples.

Results

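Transcript levels of 7 cholesterol synthesis genes, *Hmgcs1*, *Idi1*, *Fdft1*, *Sqle*, *Lss*, *Cyp51* and *Dhcr7*, were described in mouse spermatocytes with and without MFN2 (mitofusin 2, an outer mitochondrial membrane protein needed for mitochondrial fusion). The 7 genes were taken by symbol from the 54532 genes of one expression table, and each symbol matched 1 row. All 7 had a level above 1 FPKM (fragments mapped to a gene per kilobase of its length, after scaling of the libraries) in all 8 libraries. The RNA came from C57BL/6J mice whose *Mfn2* alleles are floxed around exon 6. Animals labelled Mfn2 loxp/loxp; Stra8-Cre were the MFN2 cKO, and animals labelled Mfn2 loxp/loxp were the MFN2 WT, so that the controls carried floxed alleles too. The study also counted heterozygous floxed animals as MFN2 WT, and took controls from the same litters. The *Stra8* promoter drives Cre in male germ cells from early spermatogonia on, so the somatic cells of the testis kept MFN2. Spermatocytes labelled P (pachytene) or L/Z (leptotene or zygotene) were isolated by sedimentation through a BSA gradient at postnatal day (PD) 24 or PD 52, and each of the 8 groups was 1 library. Whether a library held cells of one animal or of several was not stated.

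Cholesterol is built from acetyl-CoA in a long chain of enzyme steps in the cytosol and the endoplasmic reticulum. HMG-CoA synthase (*Hmgcs1*) makes the HMG-CoA that HMG-CoA reductase turns into mevalonate, and isopentenyl diphosphate isomerase (*Idi1*) interconverts the isoprenoid building blocks derived from it. Squalene synthase (*Fdft1*) joins farnesyl units and commits them to sterols, squalene epoxidase (*Sqle*) oxidises squalene, and lanosterol synthase (*Lss*) closes the sterol ring. Lanosterol demethylase (*Cyp51*) then yields an intermediate known as a meiosis-activating sterol, and *Dhcr7* catalyses a last reduction to cholesterol. SREBP transcription factors raise the transcription of these genes when membrane sterol is low, with SCAP and INSIG as sterol-sensing partners. In the testis, Leydig cells use cholesterol for steroid hormones, and *Cyp51* transcripts are known to be abundant in spermatids, the haploid cells that follow meiosis.

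The targeted gene, *Mfn2*, was at 77.1 FPKM (MFN2 WT) and 39.6 FPKM (MFN2 cKO) in the P libraries of PD 24, and at 62.2 and 50.1 FPKM in those of PD 52. The L/Z pairs had 82.2 and 34.3 FPKM (PD 24) and 97.5 and 47.9 FPKM (PD 52). It was lower in MFN2 cKO in all 4 pairs (mean log2(FPKM + 1) difference −0.87, SE 0.19, limma adjusted p = 0.28), although the FPKM covers all exons and not only the deleted one. The libraries held 14340665 to 20379950 reads on genes. Markers went partly against the labels, because the summed FPKM of 9 leptotene and zygotene markers was lower in the library labelled L/Z than in its P partner in all 4 pairs (102 to 186 FPKM against 189.5 to 272 FPKM), while 12 spermatid markers summed to 539 to 20963 FPKM in libraries labelled L/Z and to 146 to 5173 FPKM in P libraries. Single markers of leptotene and zygotene went both ways, with 4 of the 9 called higher in P (*Hormad1*, *Meiob*, *Spo11* and *Sycp2*) and 1, *Dmc1*, called lower in P, and with *Dmc1*, *Prdm9* and *Mei1* lower in P in all 4 pairs, the direction of the labels. The spermatid sum was higher in L/Z than in P in every pair and higher at PD 52 than at PD 24 in every pair. The 8 Leydig cell markers summed to 20.7 to 261 FPKM in MFN2 WT and to 102 to 666 FPKM in MFN2 cKO, higher in MFN2 cKO in all 4 pairs. The 8 macrophage markers likewise summed to 8.40 to 32.3 FPKM in MFN2 WT and 14.7 to 113 FPKM in MFN2 cKO, while 8 Sertoli cell markers were lower in every L/Z library than in its P partner (11.4 to 117 against 84.8 to 340 FPKM). None of these markers was at 0 in any library. In such bulk RNA, fewer cells of a type and less RNA per cell cannot be told apart.

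Levels per length spanned a wide range among the 7 genes. *Fdft1* was the highest in all 8 libraries, with a median of 107 FPKM and a range of 60.3 to 172 that did not overlap that of any other of the 7. *Sqle* followed with a median of 23.0 FPKM and was second in 7 of 8 libraries. *Cyp51* (median 13.5), *Idi1* (10.6) and *Hmgcs1* (10.1 FPKM) exchanged places from library to library, and their ranges overlapped. *Lss* (median 2.85) and *Dhcr7* (2.52 FPKM) held the last places in all 8 libraries, and these neighbours did not differ beyond their spread either. The reads behind a single value ran from 122 for *Dhcr7* to 10653 for *Fdft1*, so counting error was largest for *Dhcr7*. The plot of levels by library shows which of the 7 followed the genotype and which followed the stage label and the age.

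**Figure D1:**
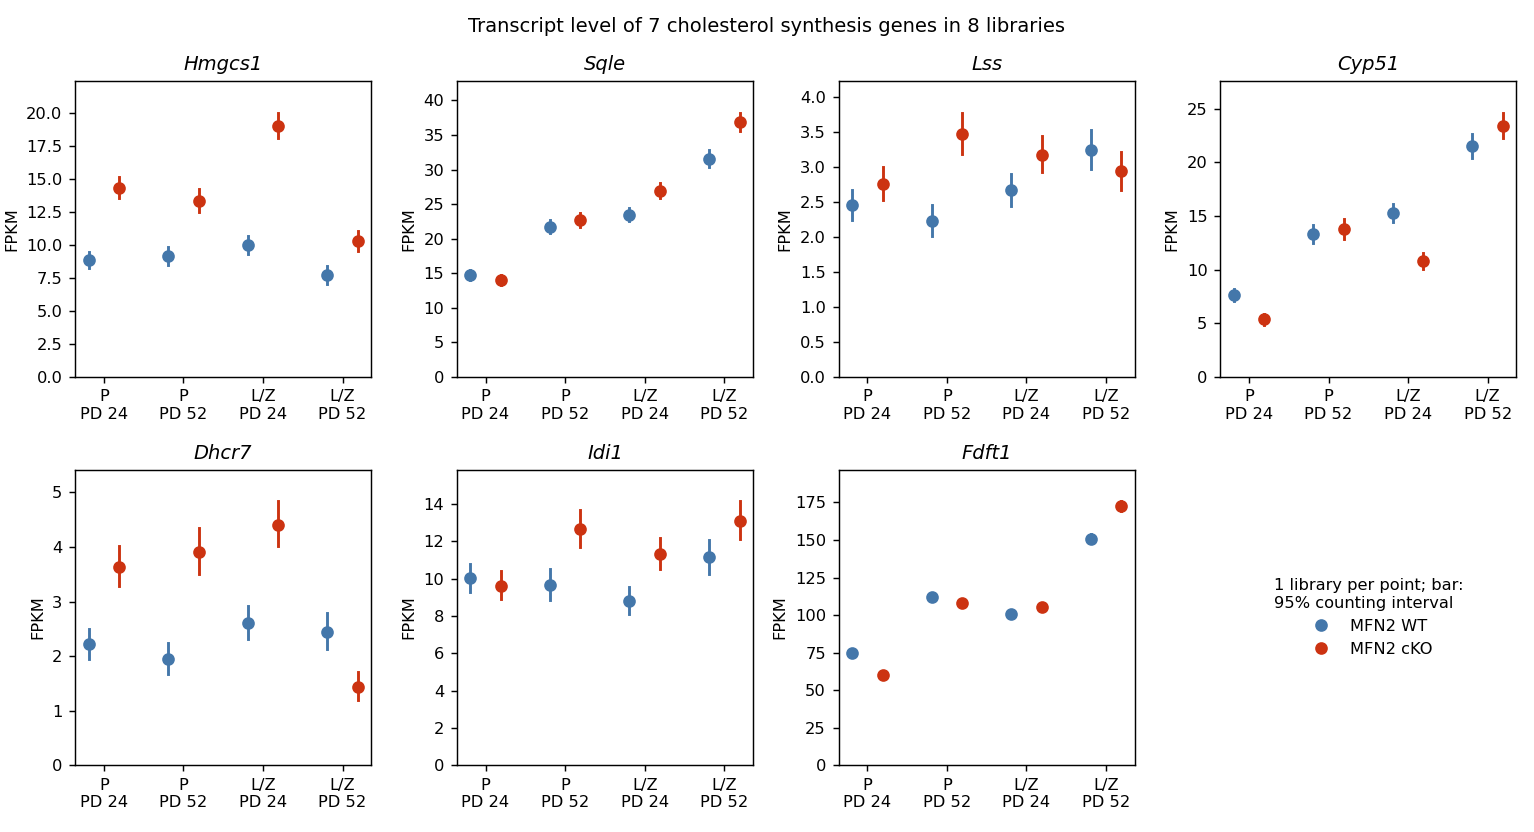
FPKM of each of the 7 genes (vertical axis, from 0) in the 8 libraries, grouped by labelled stage and age, with MFN2 WT in blue and MFN2 cKO in red. Each point is 1 library and its bar is the exact 95% interval for counting error only. *Hmgcs1* lies higher in red in all 4 pairs, while *Fdft1*, *Sqle* and *Cyp51* climb from P at PD 24 to L/Z at PD 52.

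*Hmgcs1* (ENSMUSG00000093930, forward strand of chromosome 13 of GRCm38, 119690379 to 119708260) acts earliest in the path among the 7. The P libraries of PD 24 held 8.88 FPKM (MFN2 WT) and 14.4 FPKM (MFN2 cKO), and those of PD 52 held 9.16 and 13.3 FPKM. The L/Z libraries held 9.98 and 19.1 FPKM (PD 24) and 7.71 and 10.3 FPKM (PD 52). All 4 MFN2 cKO libraries were thus above all 4 MFN2 WT libraries, although the highest WT library and the lowest cKO library were close. Such a separation was seen for 1 of the 7 genes and for 0.656% of the 21175 genes above 1 FPKM in at least 1 library. The reads were 1.62-fold, 1.91-fold, 1.46-fold and 1.33-fold higher in MFN2 cKO in P at PD 24, L/Z at PD 24, P at PD 52 and L/Z at PD 52, and the 95% counting interval lay above no change in each pair. Over the 4 pairs, the mean difference on the log2(FPKM + 1) scale was 0.60 (SE 0.15), and it did not pass the threshold (limma adjusted p = 0.37 over all genes). With 4 pairs, a sign-flip permutation test of a single gene could not go below 0.125.

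The level of *Hmgcs1* and the sums of Leydig cell markers were both higher in MFN2 cKO in all 4 pairs. Over the 8 libraries, Pearson's r of *Hmgcs1* with the mean log2 level of the 8 Leydig cell markers was 0.66, a description over libraries that share genotype, age and stage label. The P MFN2 WT library at PD 52 had a Leydig sum of 261 FPKM, above that of 3 of the 4 MFN2 cKO libraries, with *Hmgcs1* at 9.16 FPKM. The L/Z MFN2 cKO library at PD 24 had the highest *Hmgcs1*, 19.1 FPKM, with a Leydig sum of 207 FPKM, and the P MFN2 cKO library at PD 52 had a Leydig sum of 666 FPKM with *Hmgcs1* at 13.3 FPKM. The macrophage sum was also higher in MFN2 cKO in all 4 pairs. For *Hmgcs1*, r was 0.51 with the mean of the macrophage markers and −0.70 with that of the spermatid markers. The part of RNA from Leydig cells or these other cells in the *Hmgcs1* difference was not tested. An antisense gene, *Gm48342*, overlaps *Hmgcs1*, and it measured at most 0.209 FPKM.

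The *Hmgcs1* promoter is shown because it is the gene of the 7 whose MFN2 cKO and MFN2 WT libraries did not overlap, and because SREBP proteins bind sterol regulatory elements. The 250 bases before its RefSeq start site (GRCm38.p6, forward strand, chr13:119690101-119690350) are printed in lower case, with capitals marking a sterol regulatory element (TCACNCCAC), CCAAT boxes (CCAAT or, on the other strand, ATTGG) and GC boxes (GGGCGG or CCGCCC).
Hmgcs1: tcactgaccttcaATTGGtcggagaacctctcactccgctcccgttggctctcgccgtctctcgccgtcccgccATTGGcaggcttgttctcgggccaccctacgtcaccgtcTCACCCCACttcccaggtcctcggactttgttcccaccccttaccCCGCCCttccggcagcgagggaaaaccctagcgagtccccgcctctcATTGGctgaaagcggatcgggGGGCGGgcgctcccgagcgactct
The element TCACCCCAC starts at position −137 from the start site, the CCAAT boxes at −237, −176 and −45 and the GC boxes at −92 and −24. On both strands, the 250 bases before the start site held the sterol regulatory element in 1.05% of 32851 RefSeq promoters, a CCAAT box in 33.8% and a GC box in 32.7%. Of the 7 genes, 5 matched a RefSeq promoter (not *Sqle* and *Fdft1*), and *Hmgcs1* was the 1 with letters of the sterol regulatory element in that window, while all 5 held a CCAAT box and a GC box (*Dhcr7* before 1 of its start sites).

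*Idi1* (ENSMUSG00000058258, forward strand of chromosome 13, 8885501 to 8892451) varied least among the 7, by 1.48-fold from the lowest to the highest library. Levels were 10.0 FPKM (MFN2 WT) and 9.63 FPKM (MFN2 cKO) in P of PD 24, and 9.66 and 12.7 FPKM in P of PD 52. For L/Z they were 8.83 and 11.3 FPKM (PD 24) and 11.2 and 13.1 FPKM (PD 52). It was higher in MFN2 cKO in 3 of 4 pairs, with counting intervals above no change in those 3, and the groups overlapped. The mean difference of 0.21 (SE 0.15) had a limma adjusted p of 0.85, and neither stage nor age passed the test for it. Of its 50-base windows, 30.5% also occur in pseudogenes or an overlapping gene, none of which reached more than 1.40 FPKM.

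*Fdft1* (ENSMUSG00000021273, reverse strand of chromosome 14, 63145150 to 63179578) followed the age of the mice and the stage label. P spermatocytes had 74.7 FPKM (MFN2 WT) and 60.3 FPKM (MFN2 cKO) at the younger age, and 112 and 108 FPKM at the older. L/Z libraries had 101 and 105 FPKM (PD 24) and 151 and 172 FPKM (PD 52). All 4 PD 52 libraries were above all 4 PD 24 libraries, although the gap between 105 and 108 FPKM was narrow. Between genotypes *Fdft1* differed little, with a mean of −0.03 (SE 0.16, limma adjusted p = 0.99; 0.0075 with a further median-of-ratios scaling), lower in MFN2 cKO in both P pairs (the pair at PD 52, at −0.05, turned to 0.05 with that scaling) and higher in both L/Z pairs. The 2 genes *Fdft1* and *Ctsb*, which lie on opposite strands, overlap by 774 exonic bases (18.3% of *Fdft1*). *Ctsb* measured 3.69 to 21.2 FPKM, and as the counting was not stated to use strand, reads in the shared bases cannot be assigned with certainty.

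*Sqle* (ENSMUSG00000022351, forward strand of chromosome 15, 59315077 to 59331192), a rate-controlling enzyme of the sterol branch, separated the stage labels. Its P values were 14.7 FPKM (MFN2 WT) and 14.0 FPKM (MFN2 cKO) at PD 24, then 21.7 and 22.7 FPKM at PD 52. Its L/Z values were 23.4 and 26.9 FPKM (PD 24) and 31.5 and 36.9 FPKM (PD 52). Each L/Z library was above each P library, although the highest P library (22.7 FPKM) and the lowest L/Z library (23.4 FPKM) were close. By genotype the mean difference was 0.10 (SE 0.14, limma adjusted p = 0.95), with both L/Z pairs higher in MFN2 cKO beyond counting error and both P pairs within it.

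*Lss* (ENSMUSG00000033105, forward strand of chromosome 10, 76531588 to 76557138) was low throughout, at 2.45 FPKM (MFN2 WT) and 2.76 FPKM (MFN2 cKO) in P of PD 24, and 2.22 and 3.47 FPKM in P of PD 52. The L/Z pairs were at 2.66 and 3.17 FPKM (PD 24) and 3.23 and 2.94 FPKM (PD 52). The pair of P spermatocytes at PD 52 held the largest difference for *Lss*, 1.56-fold in reads, and the groups overlapped throughout. None of genotype, stage or age passed the test for *Lss*, with mean differences of 0.17, −0.11 and 0.07 (SE 0.15, 0.15 and 0.14) and limma adjusted p of 0.88, 0.60 and 0.74. The antisense gene *4930483K19Rik*, at 0.391 to 18.9 FPKM, overlaps 381 exonic bases (3.53%) of *Lss*.

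*Cyp51* (ENSMUSG00000001467, reverse strand of chromosome 5, 4081145 to 4104746) had the widest range among the 7, 4.37-fold from the lowest to the highest library. P libraries of PD 24 gave 7.61 FPKM (MFN2 WT) and 5.36 FPKM (MFN2 cKO), and P libraries of PD 52 gave 13.3 and 13.7 FPKM. L/Z libraries gave 15.2 and 10.8 FPKM (PD 24) and 21.5 and 23.4 FPKM (PD 52). Within each pair it was higher in L/Z than in P and higher at PD 52 than at PD 24. At PD 24 both MFN2 cKO libraries were below their MFN2 WT partners, to 0.704-fold in P and 0.709-fold in L/Z in reads, with counting intervals below no change. At PD 52 the reads were 1.03-fold and 1.09-fold those of MFN2 WT, the former within counting error. The mean genotype difference was −0.18 (SE 0.17, limma adjusted p = 0.89). *Akap9*, on the other strand, shares 166 exonic bases with *Cyp51* (3.76%), at 2.41 to 7.90 FPKM.

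The *Cyp51* promoter is shown for comparison with that of *Hmgcs1*, because *Cyp51* had the largest stage and age effects among the 7. The stretch free of exons, positions −250 to −50 before the RefSeq start site (GRCm38.p6, reverse strand, chr5:4104747-4104947), is printed 5′ to 3′ with its GC box, at −135, in capitals.
Cyp51: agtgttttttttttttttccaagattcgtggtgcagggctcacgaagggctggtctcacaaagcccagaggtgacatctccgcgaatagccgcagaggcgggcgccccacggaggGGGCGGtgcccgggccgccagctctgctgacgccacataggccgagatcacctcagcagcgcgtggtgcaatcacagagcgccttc
Its CCAAT box, at −29, lies beyond the printed stretch. The letters TCACNCCAC do not occur in the 250 bases searched, which says nothing of sterol response elements of other letters or places.

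*Dhcr7* (ENSMUSG00000058454, forward strand of chromosome 7, 143823145 to 143848410) was the gene of the 7 in which the genotype pairs departed most from each other. The P pairs had 2.22 FPKM (MFN2 WT) and 3.64 FPKM (MFN2 cKO) at PD 24, and 1.94 and 3.91 FPKM at PD 52. The L/Z pairs had 2.60 and 4.41 FPKM (PD 24) but 2.45 and 1.43 FPKM (PD 52). Of the 4 MFN2 cKO libraries, 3 were thus above all 4 MFN2 WT libraries and the other was below them all. In reads, MFN2 cKO was 1.64-fold, 1.69-fold and 2.02-fold of MFN2 WT in the former 3 pairs and 0.586-fold in L/Z at PD 52, each beyond counting error. The mean over the pairs was 0.34 (SE 0.23, limma adjusted p = 0.84). That L/Z MFN2 cKO library at PD 52, with 122 reads of *Dhcr7*, also held the highest spermatid sum, 20963 FPKM, and the part of the spermatid RNA in the *Dhcr7* value was not tested.

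The first comparison asked which genes differ when germ cells lack MFN2. Of the 7 genes, 5 had a mean difference above 0 and 2 (*Cyp51* and *Fdft1*) below 0, with a median of 0.17 on the log2(FPKM + 1) scale beside −0.04 over all 21175 genes tested. None of the 7 was called at a limma adjusted p under 0.05, and 1 (*Hmgcs1*) had an unadjusted p under 0.05. Among all genes 0.132% were called higher and 0.00472% lower in MFN2 cKO, 28 genes and 1 gene, while 1467 had an unadjusted p under 0.05. With voom weights on the recovered reads, 0 of the 7 were called as well. On the log2(FPKM + 1) scale, 0 of the 7 reached a 2-fold difference in P at PD 24, L/Z at PD 24, P at PD 52 or L/Z at PD 52, where 8.08%, 10.5%, 11.0% and 7.95% of genes did. The plot of changes along the 3 factors shows the 4 pairs of each gene beside their mean.

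**Figure D2:**
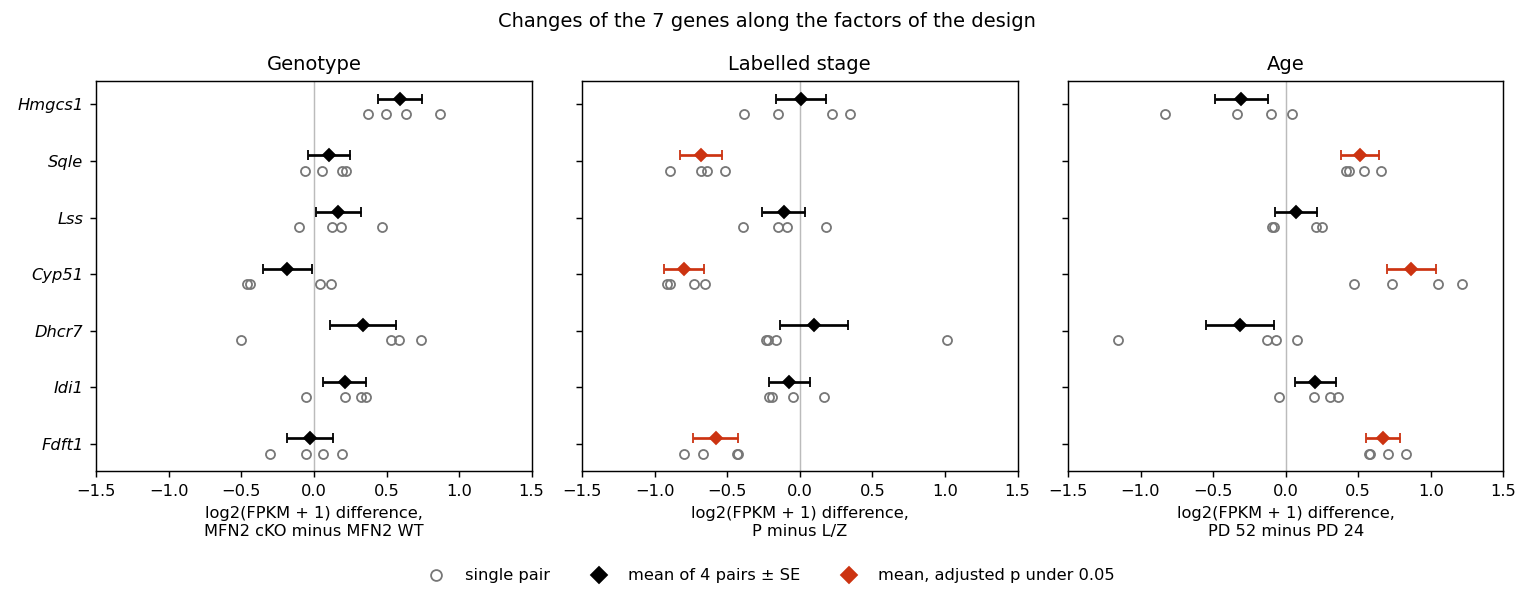
Difference in log2(FPKM + 1) of each of the 7 genes (horizontal axis) between genotypes, labelled stages and ages. Open circles are the 4 pairs of libraries, diamonds the mean of the pairs with its limma standard error, in red where the adjusted p over all genes was under 0.05. *Cyp51*, *Sqle* and *Fdft1* are red for stage and for age, and no gene is red for genotype.

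Another 14 enzymes of the path were compared in the same way. None of the 14 was called for genotype, 11 had a mean difference above 0, and their median was 0.06 beside −0.04 over all genes. In L/Z at PD 24 all 13 that were above 1 FPKM in that pair were higher in MFN2 cKO (median 0.47, beside 0.08 over all genes). The other 1, *Fdps*, was at 0.692 FPKM in MFN2 WT and 0.402 FPKM in MFN2 cKO. In L/Z at PD 52 only 2 of 12 were higher (median −0.09, beside 0.02). In the P pairs 9 of 13 were higher at PD 24 (median 0.15, beside −0.10) and 7 of 13 at PD 52 (median 0.08, beside −0.05). All 12 spermatid markers were lower in MFN2 cKO in L/Z at PD 24 and higher in L/Z at PD 52. Leydig cell markers (8 of 8) and macrophage markers (7 of 7) were higher in both L/Z pairs. The part of these cell types in the enzyme differences was not tested. *Nsdhl* in P at PD 24 and *Msmo1* in L/Z at PD 24 passed 2-fold on the log2(FPKM + 1) scale. Each was the 1 of 13 in its pair, beside 8.08% and 10.5% of all genes. *Mvd* came near, with pair differences from −0.81 to 0.96. *Nsdhl*, which takes part in removing methyl groups from the ring, went from 1.27 FPKM (MFN2 WT) to 4.05 FPKM (MFN2 cKO) in P at PD 24, from 2.24 to 5.32 in L/Z at PD 24, from 3.01 to 5.14 in P at PD 52 and from 2.34 to 1.73 in L/Z at PD 52. *Msmo1*, the methylsterol oxidase, went from 1.43 to 2.97 FPKM, from 1.46 to 4.55, from 2.25 to 3.06 and from 0.598 to 0.835 for these pairs in turn. *Nsdhl* was thus, like *Dhcr7*, higher in MFN2 cKO in 3 pairs and lower in L/Z at PD 52. The mean differences, 0.61 for *Nsdhl* and 0.60 for *Msmo1*, had limma adjusted p of 0.71 and 0.58. The plot of pair changes sets the 7 genes beside these 14.

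**Figure D3:**
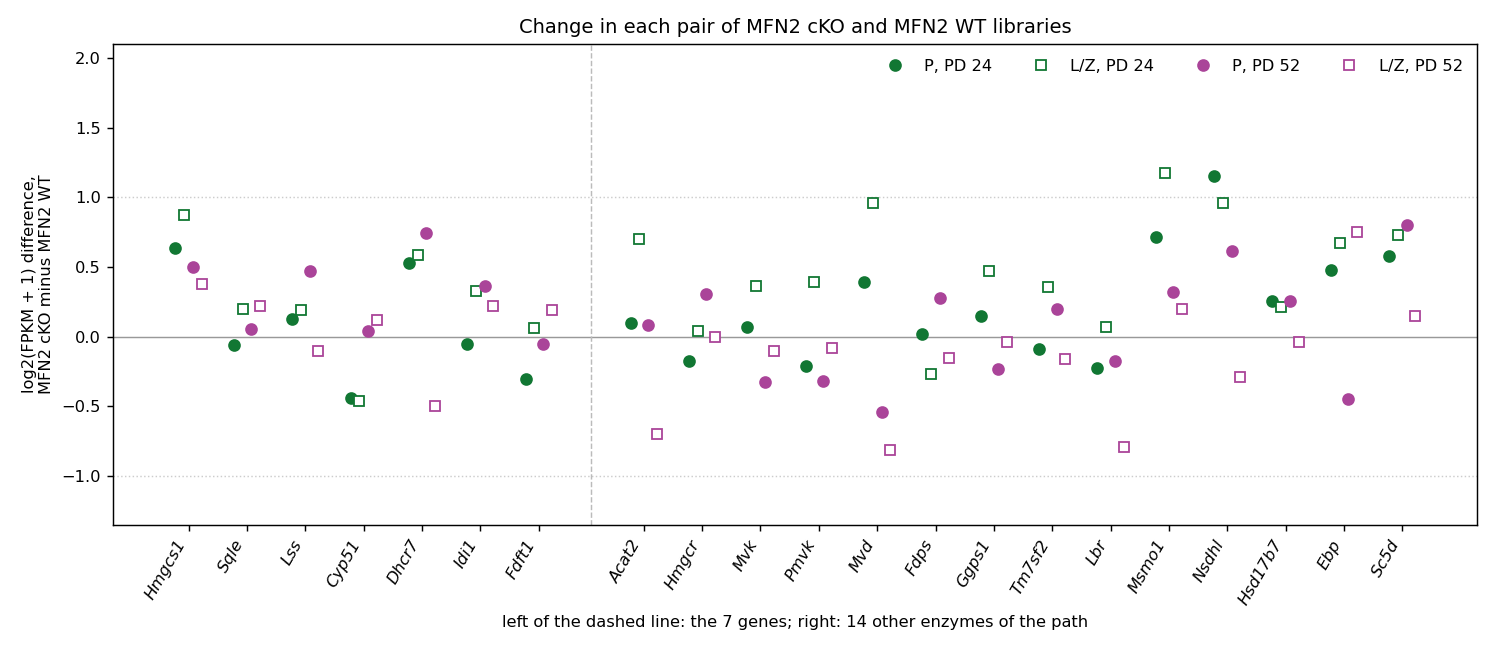
Difference in log2(FPKM + 1) between MFN2 cKO and MFN2 WT (vertical axis) in each of the 4 pairs, for the 7 genes and 14 other enzymes of the path. Circles are P pairs and squares L/Z pairs, green at PD 24 and purple at PD 52, and dotted lines mark a 2-fold difference. *Hmgcs1*, *Msmo1* and *Sc5d* lie above 0 in all 4 pairs, and *Nsdhl* and *Dhcr7* lie above 0 in 3 pairs and below 0 in L/Z at PD 52.

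The second comparison set P against L/Z spermatocytes of the same genotype and age. *Cyp51*, *Sqle* and *Fdft1* were lower in P in all 4 pairs, and these 3 of the 7 were called. Their mean differences of P minus L/Z were −0.80 (SE 0.14, limma adjusted p = 0.0077) for *Cyp51*, −0.68 (SE 0.15, adjusted p = 0.014) for *Sqle* and −0.58 (SE 0.16, adjusted p = 0.031) for *Fdft1*. Of all genes 16.0% were called lower and 12.4% higher in P. Of the 7 genes, *Sqle* was the 1 whose L/Z libraries were all above its P libraries, as 5.63% of all genes were. *Hmgcs1* had a mean of 0.01 (−0.07 with a further median-of-ratios scaling), made of lower values in P at PD 24 and higher values in P at PD 52, and *Dhcr7* had a mean of 0.10 that rested on the MFN2 cKO pair at PD 52. *Lss* (−0.11) and *Idi1* (−0.07) did not pass either. Among the 14 other enzymes 3 were called, all higher in P, namely *Lbr* (0.94, adjusted p = 0.0071), *Ebp* (1.04, adjusted p = 0.025) and *Tm7sf2* (0.54, adjusted p = 0.041). *Lbr* and *Tm7sf2* encode sterol reductases that act right after *Cyp51*, and *Ebp* encodes a later isomerase. In *Lbr* the P libraries measured 8.54 to 16.7 FPKM and the L/Z libraries 2.86 to 8.05 FPKM. So the called genes of the path went both ways between the stage labels, with *Fdft1*, *Sqle* and *Cyp51* lower and the 3 later enzymes higher in P.

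The stage calls depended on single pairs, and that of *Fdft1* also on the filter on low values (limma adjusted p = 0.065 without it). Without the MFN2 WT pair at PD 24, the limma adjusted p of *Cyp51*, *Sqle* and *Fdft1* were 0.070, 0.082 and 0.097, without the MFN2 cKO pair at PD 52 0.058, 0.072 and 0.12, and without the MFN2 cKO pair at PD 24 0.040, 0.059 and 0.12, with mean differences between −0.85 and −0.51 whichever of the 4 pairs was left out. The fits without the MFN2 WT pair at PD 24 or the MFN2 cKO pair at PD 52 called no gene at all. The 2 pairs at PD 24 alone gave means of −0.90 for *Cyp51*, −0.77 for *Sqle* and −0.61 for *Fdft1*, with limma adjusted p of 0.084, 0.086 and 0.16. That fit called no gene either and left 7422 at an unadjusted p under 0.05. Spermatid sums were higher in L/Z than in P in these 2 pairs too (2773 against 1381 FPKM in MFN2 WT, 539 against 146 in MFN2 cKO).

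The third comparison set PD 52 against PD 24 for the same genotype and stage label. *Cyp51*, *Fdft1* and *Sqle* were higher at PD 52 in all 4 pairs and were called, with mean differences of 0.87 (SE 0.17, limma adjusted p = 0.025), 0.67 (SE 0.12, adjusted p = 0.019) and 0.51 (SE 0.13, adjusted p = 0.045). Among all genes 11.9% were called higher and 5.41% lower at PD 52. *Fdft1* alone of the 7 had all its PD 52 libraries above its PD 24 libraries, which held for 6.96% of genes. *Cyp51* in MFN2 cKO measured 2.57-fold of PD 24 in reads in P and 2.17-fold in L/Z, beside 1.75-fold and 1.41-fold in MFN2 WT. *Hmgcs1* (−0.31, adjusted p = 0.26) and *Dhcr7* (−0.32, adjusted p = 0.35) had means below 0 that did not pass, and in L/Z MFN2 cKO they measured 0.539-fold and 0.325-fold of PD 24 in reads. *Idi1* (0.20) and *Lss* (0.07) did not pass. Among the other 14 enzymes, 11 had means below 0 and *Lbr* was called lower (−0.75, adjusted p = 0.038), the opposite of the direction of *Cyp51*, *Fdft1* and *Sqle*. In L/Z MFN2 cKO 11 of 13 were lower at PD 52, 6 of them past 2-fold (median −0.83). Medians were −0.08 in L/Z MFN2 WT, 0.05 in P MFN2 WT and −0.02 in P MFN2 cKO.

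The age calls depended on the filter, the scaling and single pairs. Without the filter on low values none of the 3 was called (limma adjusted p 0.060 for *Cyp51*, 0.053 for *Fdft1* and 0.069 for *Sqle*). With each library scaled to its total reads on genes, in place of the authors' size factors, the means were 0.68 for *Cyp51*, 0.47 for *Fdft1* and 0.32 for *Sqle*, with limma adjusted p of 0.056, 0.057 and 0.18. The median of all genes then lay at −0.13 in place of 0.00, and 1720 genes were called higher and 1500 lower in place of 2523 and 1146. Without the MFN2 WT L/Z, the MFN2 cKO L/Z or the MFN2 cKO P pair, no gene at all was called (limma adjusted p 0.090, 0.096 and 0.15 for *Cyp51*). Without the MFN2 WT P pair *Sqle* was not called (0.052). Whichever pair was left out, means were 0.75 to 1.00 for *Cyp51*, 0.62 to 0.70 for *Fdft1* and 0.46 to 0.54 for *Sqle*. The 2 P pairs alone gave means of 0.97, 0.70 and 0.60 for *Cyp51*, *Fdft1* and *Sqle* and limma adjusted p of 0.32, 0.34 and 0.36. Spermatid sums were higher at PD 52 in these 2 pairs too (5173 against 1381 FPKM in MFN2 WT, 2461 against 146 in MFN2 cKO).

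The genotype differences were also tested against age and stage label. No interaction of genotype with age, of genotype with stage label or of age with stage label was called for any of the 7 genes (lowest limma adjusted p 0.49, 0.97 and 0.85), while 0.0142%, 0.0% and 0.0% of all genes were called, and 2641, 876 and 979 genes had an unadjusted p under 0.05. *Cyp51* had the lowest genotype by age value, lower in MFN2 cKO in both pairs at PD 24 and slightly higher in both at PD 52.

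Spermatid markers moved with stage label and age in the same directions as *Cyp51*, *Sqle* and *Fdft1*. Of the 12 markers 11 were called lower in P and 11 higher at PD 52, with medians of −1.54 and 2.55 on the log2(FPKM + 1) scale. Over the 8 libraries, Pearson's r with the mean log2 level of the 12 markers was 0.92 for *Cyp51*, 0.88 for *Fdft1* and 0.73 for *Sqle*, but −0.70 for *Hmgcs1* and −0.74 for *Dhcr7*. With the mean of the 8 Sertoli cell markers r was −0.87 for *Cyp51*, −0.89 for *Fdft1* and −0.92 for *Sqle*. These are descriptions over libraries that share age, stage label and genotype. In P at PD 24, where the spermatid sum was 1381 FPKM in MFN2 WT and 146 in MFN2 cKO, *Sqle* was 14.7 and 14.0 FPKM, *Fdft1* 74.7 and 60.3 and *Cyp51* 7.61 and 5.36. In L/Z at PD 24, with sums of 2773 and 539 FPKM, *Sqle* and *Fdft1* were slightly higher in MFN2 cKO and *Cyp51* was lower, at 10.8 against 15.2 FPKM. Sertoli cell markers moved the opposite way, with all 8 called higher in P and 6 called lower at PD 52. Peritubular myoid and macrophage markers followed the stage label like *Cyp51*, *Sqle* and *Fdft1*, with 5 of 5 and 6 of 7 called lower in P and sums of 37.8 to 59.5 and 8.40 to 33.2 FPKM in P against 161 to 208 and 16.7 to 113 FPKM in L/Z. Of 8 pachytene markers 2 were called higher and 1 lower in P, and of 9 spermatogonia markers 1 and 4. The part of RNA from these cell types in the stage and age differences was not tested. The plot of levels beside marker sums shows these libraries.

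**Figure D4:**
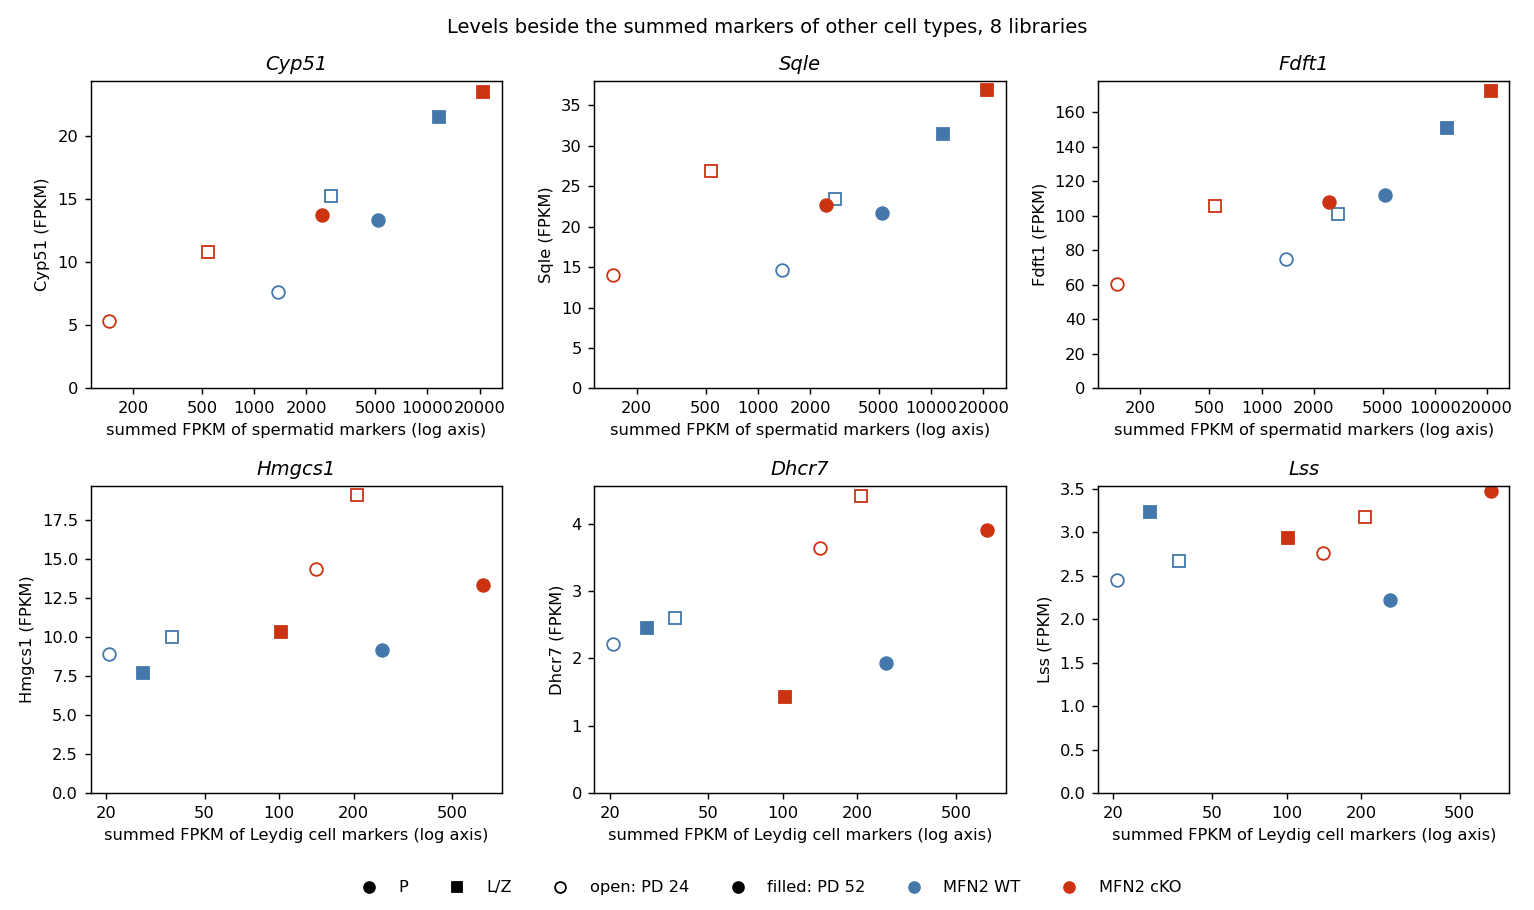
FPKM of *Cyp51*, *Sqle* and *Fdft1* (vertical axes, from 0) against the summed FPKM of 12 spermatid markers (log axis, upper row), and of *Hmgcs1*, *Dhcr7* and *Lss* against the summed FPKM of 8 Leydig cell markers (log axis, lower row). Each point is 1 of the 8 libraries, blue for MFN2 WT and red for MFN2 cKO, circles for P and squares for L/Z, open at PD 24 and filled at PD 52. *Cyp51* climbs with the spermatid sum, while the P MFN2 WT library at PD 52 has a high Leydig sum of 261 FPKM and a low *Hmgcs1* of 9.16 FPKM.

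The 7 genes did not move as 1 set. On the log2(FPKM + 1) scale over the 8 libraries, Pearson's r was 0.97 between *Cyp51* and *Fdft1*, 0.96 between *Sqle* and *Fdft1* and 0.93 between *Sqle* and *Cyp51*. *Hmgcs1* and *Dhcr7* had an r of 0.79 with each other and of −0.12 to −0.50 with those 3. *Lss* and *Idi1* had an r of 0.70 with each other, but *Idi1* also had 0.60 with *Sqle* and 0.61 with *Fdft1*, and *Lss* 0.51 with *Dhcr7* and 0.47 with *Sqle*. Among 7502 protein-coding genes with a mean of at least 5 FPKM, those most like each of the 7 were *Serinc3* (0.98) and *Pkdcc* (0.97) for *Hmgcs1*, *Rhno1* and *Hsf2* (both 0.996) for *Sqle*, *Dcst2* and *Gm3045* (both 0.997) for *Cyp51* and *Ing3* and *ccdc198* (both 0.995) for *Fdft1*. For *Dhcr7* the most like was *Gpbp1l1* (0.93). Those for *Lss* were *Atf2* (0.88) and *Ttk* (0.87) and those for *Idi1* *Slco6d1* (0.98) and *Svip* (0.96).

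Genes that sense sterols or control the path were compared next. Of 11 genes of sterol sensing and SREBP control, 0 were called for genotype, with a median of 0.03 beside −0.04 over all genes. Between ages 3 were called, all lower at PD 52 as 5.41% of all genes were, namely *Srebf1*, which encodes an SREBP (−0.66, limma adjusted p = 0.037), *Scap*, its escort protein (−0.80, adjusted p = 0.035), and *Mbtps1*, a protease that releases it (−0.60, adjusted p = 0.042). The direction was the opposite of that of *Cyp51*, *Fdft1* and *Sqle*, and 10 of the 11 had means below 0. No gene at all was called for age in the P pairs alone, or without the MFN2 WT L/Z, MFN2 cKO L/Z or MFN2 cKO P pair. Of the spermatid markers 11 of 12 were called higher at PD 52, and of the Sertoli cell markers 6 of 8 lower. Their part in these differences was not tested. Between stage labels 2 were called, both higher in P as 12.4% of all genes were, namely *Nr1h2*, a liver X receptor (0.61, adjusted p = 0.020), and *Erlin2* (0.63, adjusted p = 0.025), which takes part in the degradation of HMG-CoA reductase.

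Of 15 genes of sterol uptake, transport and storage, 13 were above 1 FPKM in a library, and 0 were called for genotype (median 0.07 beside −0.04 over all genes). Between stage labels 1 of the 13 was called higher and 1 lower in P, beside 12.4% and 16.0% of all genes. Between ages 1 was called higher and 1 lower at PD 52, beside 11.9% and 5.41%. *Soat1*, which esterifies cholesterol for storage, was called higher in P (1.02, limma adjusted p = 0.0051) and lower at PD 52 (−0.84, adjusted p = 0.021). *Osbp*, a sterol carrier, was called higher at PD 52 (0.63, adjusted p = 0.044), and *Mylip*, a ubiquitin ligase, was called lower in P (−0.68, adjusted p = 0.033). *Abca1*, a cholesterol exporter, went from 2.44 FPKM (MFN2 WT) to 7.86 FPKM (MFN2 cKO) in P at PD 52, past 2-fold in that pair, and had a mean genotype difference of 0.86 (adjusted p = 0.25), higher in MFN2 cKO in all 4 pairs. *Lipe*, a lipase that also splits cholesterol esters, was 10.4 and 2.51 FPKM in L/Z at PD 24, past 2-fold lower in MFN2 cKO, and had a mean genotype difference of −0.66 (adjusted p = 0.76).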

How the data were processed

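The authors aligned paired-end reads of total RNA libraries (NEBNext Ultra kit, not stated to keep strand) and deposited FPKM values per gene, made with Novomagic. The submitters' processing notes name CASAVA 1.4, Bowtie 0.12.2 and the builds mm8 and mm9, but the deposited gene coordinates are those of GRCm38 (98.1% of genes as in GENCODE M21). No filter on low values had been applied, as 14898 genes are 0 in every library. Multiplying FPKM by gene length and by an effective size estimated for each library gave whole reads for 100% of values (tolerance 0.05 reads), and showed that the libraries had been scaled by median-of-ratios size factors.

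Effects were fitted with limma 3.58.1 (R 4.3.3; empirical Bayes with trend) to log2(FPKM + 1), which understates fold changes of low genes, over the 21175 genes above 1 FPKM in at least 1 library. Libraries that differed in 1 factor alone formed 4 pairs, entered as a block, and p-values were adjusted by Benjamini-Hochberg over all genes, with calls under 0.05. With 1 library per group the p-values measure the spread between pairs. Single pairs were given with exact binomial (Clopper-Pearson) 95% intervals from the reads, for counting error only. Named genes beyond the 7 were Mfn2, Sc5d (for the direction of its pairs) and listed genes called or at least 2-fold in a pair. Also named were the 2 protein-coding genes with the highest r to each of the 7 (mean at least 5 FPKM). A few listed genes, and 1 gene most like a member, are not reported here. The fits were tested on simulated data. The 7 genes and the lists were chosen with earlier results of these data known. The reads, and an annotation of shared 50-base windows from GENCODE transcripts, were used for checks. Alternatives were a pseudocount of 0.1, no filter, 2 other scalings, protein-coding genes only, no pair block, voom weights on the recovered reads, and pairs left out. Python 3.11.15 with numpy 2.4.6, pandas 2.3.3, scipy 1.17.1 and matplotlib 3.10.9 was used.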

Additional observations from a re-analysis of the deposited data

Results flagged for a closer look

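For *Cyp51*, both pairs at PD 24 were lower in MFN2 cKO (−0.44 in P and −0.46 in L/Z on the log2(FPKM + 1) scale) and both pairs at PD 52 were higher (0.04 and 0.12). The genotype by age interaction was 0.53 (limma adjusted p = 0.49), so the difference between ages did not pass the test. Spermatid markers went the same way in 3 of the 4 pairs, with all 12 lower in MFN2 cKO in both PD 24 pairs, 11 of 12 lower in P at PD 52 and all 12 higher in L/Z at PD 52, and their part in the *Cyp51* pattern was not tested.

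For *Fdft1*, both P pairs were lower in MFN2 cKO (−0.30 and −0.05, the latter 0.05 with a further median-of-ratios scaling) and both L/Z pairs were higher (0.06 and 0.19). The genotype by stage interaction was −0.31 (limma adjusted p = 0.97).

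*Hmgcs1* was lower in P than in L/Z at PD 24 (−0.15 in MFN2 WT and −0.39 in MFN2 cKO) and higher in P at PD 52 (0.22 and 0.35). The age by stage interaction was 0.55 (limma adjusted p = 0.85).

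These patterns were singled out because their pairs went opposite ways, and the interactions were estimated from the same 8 libraries.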

How the results depend on the processing

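Genes called for genotype (29 in all) numbered 7 with a pseudocount of 0.1, 0 without the filter, 71 among protein-coding genes only, 3 without the pair block, 104 with voom weights, 0 in the PD 24 or PD 52 pairs alone and 0 with any pair left out, and 0 of the 7 genes were called under each of these. Stage calls (6013 genes, 3 of the 7) numbered 3010 without the filter, where *Fdft1* was not called (limma adjusted p = 0.065), 0 and 0 in the PD 24 pairs alone, and 0 to 5000 genes and 0 to 3 of the 7 with a pair left out. Age calls (3669 genes, 3 of the 7) numbered 791 and 0 without the filter, 3220 and 0 with total-reads scaling, 0 and 0 in the P pairs alone, and 0 to 3937 genes and 0 to 2 of the 7 with a pair left out. Leaving out a pair, or keeping 2, also leaves fewer residual degrees of freedom. The PD 24, PD 52 and P pairs alone and the total-reads scaling were chosen after seeing the data.

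Means that changed sign were of results not called. They were *Cyp51* (0.081) and *Fdft1* (0.069) for genotype in the PD 52 pairs alone, *Fdft1* for genotype with further median-of-ratios scaling (0.0075) and with a pair left out (−0.10 to 0.066), *Hmgcs1* for stage with further scaling (−0.075), voom weights (−0.0057), the PD 24 pairs alone (−0.27) and a pair left out (−0.11 to 0.14), *Dhcr7* for stage in the PD 24 pairs alone (−0.19) and with a pair left out (−0.20 to 0.21), and *Lss* for age with total-reads scaling (−0.082). The change of *Fdft1* in P at PD 52 was 0.048 with further scaling. Between genotypes, 1 of the 7 genes, *Dhcr7*, passed 2-fold in P at PD 52 as a ratio of scaled reads. Of the values for single genes under these alternatives, 216 of effects kept direction and side, 31 lost a call and 12 changed sign. Of the genotype changes in single pairs, 79 stayed within counting error, 4 moved beyond it and 1 changed sign. No paired analysis by replicate number was possible because each group holds 1 library.

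With 1 library per group, animal-to-animal variation was not measured, and 4 pairs gave 3 residual degrees of freedom.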

Other observations

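Of 7 genes that use sterols outside the synthesis path, 5 were above 1 FPKM in a library. *Cyp11a1*, which starts steroid hormone synthesis in Leydig cells, was called higher in MFN2 cKO (1.93, limma adjusted p = 0.014), from 2.0 FPKM (MFN2 WT) to 12.4 FPKM (MFN2 cKO) in P at PD 24, 3.17 to 13.3 in L/Z at PD 24, 12.3 to 46.6 in P at PD 52 and 1.54 to 8.79 in L/Z at PD 52. It is also 1 of the 8 Leydig cell markers, of which *Hsd3b1*, *Hsd3b6* and *Cyp17a1* were called too, with means of 1.79, 2.65 and 2.58. Of all genes, 0.132% were called higher in MFN2 cKO. *Cyp27a1*, a sterol hydroxylase, was called lower in P as 16.0% of all genes were (−1.85, limma adjusted p = 0.0049). *Cyp46a1*, another hydroxylase, was called higher in P as 12.4% were (0.72, adjusted p = 0.013). These genes were named after their values were seen.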
